A study of Mus musculus with 12 samples.

Results

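MicroRNA host genes are long transcripts, many of them long non-coding RNAs (lncRNAs), whose exons or introns carry the hairpins from which microRNAs (miRNAs) are cut. A total of 9 such mouse genes were examined: Mir9-3hg, Mir124a-1hg, Mir124-2hg, Mir99ahg, Mir100hg, Mir22hg, Mir17hg, Mir142hg and Mir670hg. Their members were all rows of a deposited lncRNA count table whose transcript identifier carries one of these gene names in GENCODE M21. The rule found 43 of the 48033 rows of the table, and these rows belonged to 8 of the 9 genes. No row carried the name Mir100hg. RefSeq lists 3110039I08Rik as an older symbol of Mir100hg, and the table held 14 rows under that name, so these rows are described separately and are not counted among the members.

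The series compared 5 × FAD mice, aged 7 months and on a C57BL/6J background, with wild-type (WT) mice of the same strain and age. The 5 × FAD mice carry human APP with the Swedish, Florida and London mutations and human PS1 with a pair of further mutations, all of them linked to familial Alzheimer's disease, and Thy1 elements drive both transgenes mainly in neurons. The WT mice are non-transgenic, and no agent was given to either genotype. Hippocampus and cerebral cortex were sequenced from 3 mice of each genotype, giving 12 libraries in 4 groups of 3.

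In the canonical pathway the nuclear enzyme Drosha, with its partner Dgcr8, cuts the hairpin out of the host transcript, and Dicer trims it to a mature miRNA that guides an Argonaute protein to messenger RNAs through its seed. The level of a host transcript is therefore not the level of its miRNA, and cutting a hairpin out of an exon consumes the transcript. MiR-124 is abundant in neurons, miR-9 in neurons and neural progenitors, miR-142 in blood-derived cells and microglia, and the miR-17 to miR-92a cluster in dividing cells. Mature miRNAs were not measured in these libraries.

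In GENCODE M21, 18 miRNA genes lay within the members on the same strand, and 14 of them had mature sequences in the RefSeq table used here (GRCm38.p6). The sequences below are those of the main arms, given because they are what each host can yield; capitals mark the seed, bases 2 to 8. Mir9-3hg (chromosome 7, from 79500026 to 79534403, plus strand) holds Mir9-3.
miR-9-5p: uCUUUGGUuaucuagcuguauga
Mir99ahg (chromosome 16, from 77236317 to 77773427, plus strand) holds Mir99a, Mirlet7c-1 and Mir125b-2, and 3110039I08Rik (chromosome 9, from 41327077 to 41716994, plus strand) holds Mir100, Mirlet7a-2 and Mir125b-1. These hosts are shown together because their products share seeds.
miR-99a-5p: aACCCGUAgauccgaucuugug
miR-100-5p: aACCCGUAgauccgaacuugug
miR-125b-5p, from both hosts: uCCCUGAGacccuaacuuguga
let-7c-5p: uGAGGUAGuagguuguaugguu
MiR-99a-5p and miR-100-5p have the same seed and differ by the single substitution U16A, with positions counted from 1 at the 5′ end of miR-99a-5p. Mir22hg (chromosome 11, from 75461539 to 75466676, plus strand) holds Mir22.
miR-22-3p: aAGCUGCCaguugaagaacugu
Mir17hg (chromosome 14, from 115042879 to 115046727, plus strand) holds 6 hairpins, and 4 of their main arms fall into pairs with a common seed.
miR-17-5p: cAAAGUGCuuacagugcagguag
miR-20a-5p: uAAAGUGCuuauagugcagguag
miR-19a-3p: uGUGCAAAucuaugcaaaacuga
miR-19b-3p: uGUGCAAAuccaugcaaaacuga
miR-18a-5p: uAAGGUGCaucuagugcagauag
miR-92a-3p: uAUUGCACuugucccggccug
MiR-17-5p and miR-20a-5p differ by C1U and C12U, and miR-19a-3p and miR-19b-3p by U11C, with positions counted from the 5′ end of the first of each pair. Mir142hg (chromosome 11, from 87755577 to 87757270, plus strand) holds Mir142, and Mir670hg (chromosome 2, from 94160636 to 94264918, minus strand) holds Mir670, Mir129-2 and Gm23630.
miR-142a-3p: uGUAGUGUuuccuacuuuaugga
miR-670-5p: aUCCCUGAguguauguggugaa
miR-129-5p: cUUUUUGCggucugggcuugc
Mir124a-1hg (chromosome 14, from 64587331 to 64593961, plus strand) holds Mir124a-1 and Mir3078, and Mir124-2hg (chromosome 3, from 17789921 to 17808970, plus strand) holds Mir124a-2.

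The libraries held between 3517967 and 5014389 counts each, and the members took from 0.112% to 0.189% of them. Both libraries labelled 5 × FAD 3 stood apart from the other libraries of their genotype. Thy1 had 423, 621 and 158 counts in hippocampal 5 × FAD 1, 2 and 3 against 139 to 144 in the hippocampal WT libraries, and 562, 467 and 157 in cortical 5 × FAD 1, 2 and 3 against 161 to 202 in the cortical WT libraries. The summed level of the 8 of 16 listed microglia markers that had rows was 71.4 and 67.1 CPM (counts scaled to a common library total) in hippocampal and cortical 5 × FAD 3, and from 270.8 to 359 CPM in the other 4 libraries of that genotype. In the WT libraries it ranged from 67.2 to 102 CPM. The series states 2 females and 1 male per group, but Xist, a marker of female cells, had at least 30468 counts in the 4 libraries of 5 × FAD 1 and 2 and was at most 25 counts in the other 8, in which the Y-linked transcripts summed to at least 1074 counts. Genotype and sex cannot be told apart here. The edgeR calls and estimates of the members between the genotypes are given below with and without the libraries labelled 5 × FAD 3. The region labels held in the markers: the 4 hippocampal markers with rows summed to 122 to 144 CPM in hippocampus and 29.4 to 53.2 CPM in cortex, and the 5 cortical markers with rows to 50.2 to 81.2 and 119 to 163 CPM. The table holds mostly non-coding rows of such genes.

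Levels of the host genes spanned more than 2 orders of magnitude per unit of length. Levels are compared here as CPM per kilobase of exon, summed over the rows of a gene. Mir124a-1hg had the highest level in all 4 groups, at 350.0 ± 5.72 (SD, n = 3) CPM per kilobase in WT hippocampus, 357 ± 97.6 in 5 × FAD hippocampus, 403 ± 20.3 in WT cortex and 346 (from 304 to 386) in 5 × FAD cortex. Mir124-2hg, the other gene with a miR-124 hairpin, was at 93.3 ± 0.844 and 95.4 ± 25.9 in WT and 5 × FAD hippocampus and at 171 ± 21.6 and 170.2 ± 23.8 in WT and 5 × FAD cortex. The lowest library of Mir124a-1hg, at 255 CPM per kilobase, was above the highest of Mir124-2hg, at 197. In the cortex all other members, with at most 141 CPM per kilobase, were below all libraries of Mir124-2hg, which had at least 151.

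A middle group was formed by Mir99ahg, Mir22hg and Mir9-3hg. Their medians over the 12 libraries were 63.7, 57.7 and 57.0 CPM per kilobase, and their ranges, 48.2 to 94.5 for Mir99ahg, 47.7 to 74.6 for Mir22hg and 42.8 to 141 for Mir9-3hg, overlapped. Within a group their ranges overlapped, except that Mir99ahg was above Mir22hg and Mir9-3hg in every library of WT hippocampus, and Mir9-3hg above Mir22hg in every library of 5 × FAD cortex. Mir124-2hg overlapped with Mir99ahg in WT hippocampus and with all 3 genes in 5 × FAD hippocampus. Mir670hg followed at a median of 18.1 CPM per kilobase, between 14.1 and 22.7, and all of its libraries were below all libraries of the middle group. Mir17hg and Mir142hg were lowest, with medians of 1.04 and 2.20 CPM per kilobase, and their ranges overlapped in every group. 3110039I08Rik, the host of the miR-100 cluster, lay between 69.8 and 130 CPM per kilobase, below Mir124a-1hg in every library, and in WT hippocampus its libraries, from 104 to 114, were above those of Mir124-2hg, which had at most 94.3.

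**Figure D1:**
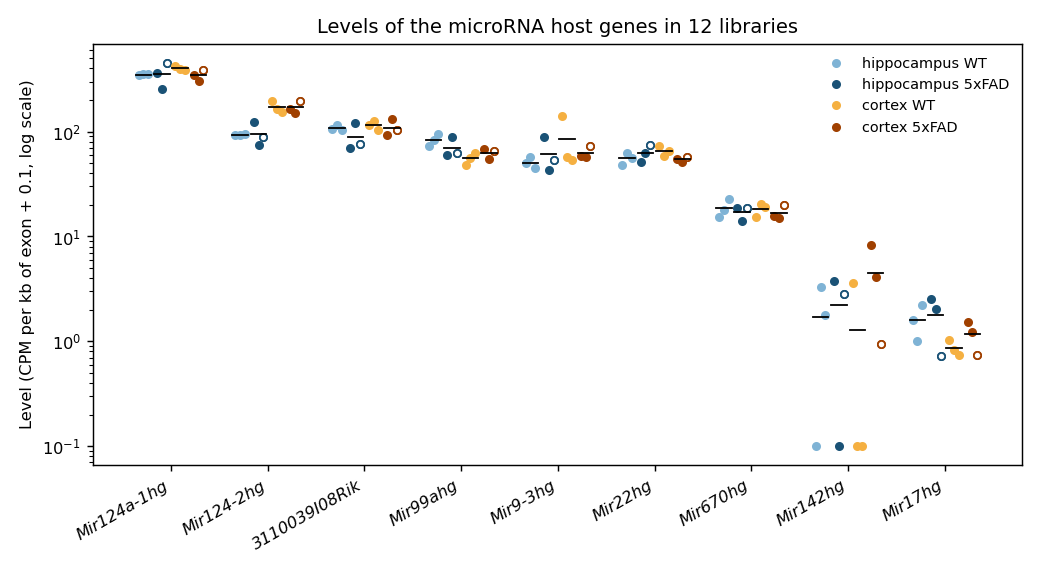
Level of each host gene in the 12 libraries, as CPM per kilobase of exon plus 0.1 on a log axis; points are libraries (open points are the libraries labelled 5 × FAD 3) and horizontal lines are group means (n = 3). Mir124a-1hg lies above all other genes in every group, Mir124-2hg is higher in cortex than in hippocampus, and Mir142hg is at 0 counts in 4 libraries, drawn at the bottom.

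Where the hairpin sits in the counted transcript differed among the hosts. Of the 75750 counts of the members, 57.5% were in 4 rows that keep a whole hairpin within an exon, 14.8% in 3 rows with part of a hairpin in an exon, 5.56% in 18 rows that span a hairpin in an intron, and 22.2% in 18 rows that do not reach one. In Mir22hg and Mir17hg all counts were in rows with the hairpins in exons, and in Mir124a-1hg 87.1% were in a single row, ENSMUST00000180610 (4 exons, from 64588051 to 64593961), whose exons hold Mir124a-1 and Mir3078. In Mir124-2hg 68.6% of the counts were in ENSMUST00000185804, a row of 1 exon from 17795744 to 17799587, which begins inside the Mir124a-2 hairpin (17795662 to 17795770). A further 22.8% were in ENSMUST00000186746 (2 exons, from 17793920 to 17795405), which ends upstream of that hairpin. Mir99ahg was the opposite case: 90.7% of its counts were in 11 rows that lie outside all of its hairpins, and the other 3 rows span them in introns. How the reads were assigned among overlapping rows is not given in the sources used here, so levels of single rows of a gene are less certain than their sum.

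**Figure D2:**
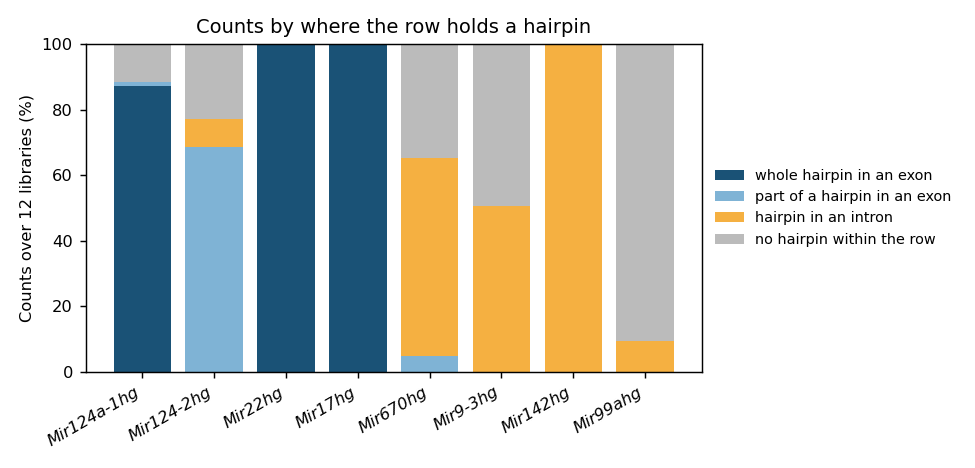
Share of each host gene's counts over 12 libraries, in percent, in rows that keep a whole hairpin in an exon, keep part of one in an exon, span one in an intron, or hold none. Mir22hg and Mir17hg are entirely exonic, Mir142hg is entirely intronic, and 90.7% of the Mir99ahg counts lie in rows without a hairpin.

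The comparison of 5 × FAD with WT asked whether the host genes differ with the transgenes in either region. None of the 7 gene sums that passed the filter on low counts was called in hippocampus or in cortex (edgeR quasi-likelihood test, Benjamini-Hochberg adjusted p under 0.05 over all features). Mir142hg was too low for this test. Of all gene sums, 0.0529% of 11343 were called in hippocampus and 0.0175% of 11404 in cortex. At an unadjusted p under 0.05 the members gave 0 of 7 in each region, beside 8.69% and 6.67% of all gene sums, and DESeq2 called 0 of 7 in each region. The groups of WT and 5 × FAD overlapped for all 7 members in both regions, while 16.5% and 13.1% of all gene sums did not overlap.

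The precision of this comparison differed between the genes. For Mir124a-1hg the log2 fold change of 5 × FAD against WT was 0.00 (95% interval -0.48 to 0.49) in hippocampus and -0.22 (-0.53 to 0.09) in cortex. Mir124-2hg gave 0.15 (-0.48 to 0.78) in hippocampus and 0.01 (-0.32 to 0.34) in cortex. Mir99ahg gave -0.06 (-0.64 to 0.53) and 0.21 (-0.22 to 0.63), and Mir22hg gave 0.08 (-0.40 to 0.56) and -0.22 (-0.60 to 0.17). For these 4 genes the intervals did not reach a change of 1 on the log2 scale in either direction. Mir670hg had -0.06 (-0.65 to 0.54) and -0.14 (-0.77 to 0.49) on the same scale. For Mir9-3hg, at 0.21 (-0.98 to 1.41) and -0.58 (-2.20 to 1.03), and for Mir17hg, at 0.18 (-1.10 to 1.46) and 0.47 (-0.50 to 1.43), changes of 2-fold could not be told from none at this depth and number of mice.

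Without the libraries labelled 5 × FAD 3, the members again gave 0 of 7 calls in hippocampus and 0 of 7 in cortex, with smallest adjusted p-values of 0.557 and 0.820 in edgeR. In that setting 34 of 11717 gene sums were called in hippocampus and 18 of 11681 in cortex. Thy1 and Trem2, the latter a microglial receptor, were among them. The libraries left out had been set apart by Thy1 and microglia markers, Trem2 included, so these calls are no independent check. The estimates for Mir124-2hg were then 0.33 in hippocampus and -0.10 in cortex. Those of Mir17hg were 0.57 and 0.73, and those of Mir9-3hg 0.42 and -1.06. Mir124a-1hg gave -0.16 and -0.30, Mir99ahg 0.01 and 0.24, Mir22hg -0.08 and -0.32, and Mir670hg -0.13 and -0.35. At an unadjusted p under 0.05 the count was 0 of 7 in each region, beside 14.0% and 6.36% of all gene sums in this setting.

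At the level of single rows the count was also 0 in each region. In hippocampus 0 of 31 tested member rows were called, beside 0.0183% of 21894 rows tested, and in cortex 0 of 29, beside 0.0545% of 21999. DESeq2 also called 0 in each region. At an unadjusted p under 0.05 there was 1 member row in each region, beside 7.58% and 5.34% of all rows, and both belonged to Mir99ahg. ENSMUST00000182656 had 18, 96 and 134 counts in WT hippocampus and 12, 13 and 26 in 5 × FAD hippocampus, a log2 fold change of -2.14 (SE 0.75, edgeR adjusted p = 0.612). Its groups overlapped through WT 1, with 18 counts, and the library labelled 5 × FAD 3, with 26. Without the latter library its log2 fold change was -2.59 (edgeR adjusted p = 0.392). ENSMUST00000182748, annotated as a retained intron, had 113, 106 and 92 counts in WT cortex and 197, 124 and 167 in 5 × FAD cortex, a log2 fold change of 0.61 (SE 0.18, edgeR adjusted p = 0.851). All 3 cortical 5 × FAD libraries were above all WT libraries for this row in CPM. Without the library labelled 5 × FAD 3 its log2 fold change was 0.61 (edgeR unadjusted p = 0.0338, adjusted p = 0.912). Counting either direction, 4 of 29 member rows did not overlap in cortex and 3 of 31 in hippocampus, beside 12.1% and 15.8% of all rows. Without the libraries labelled 5 × FAD 3, 0 member rows were called, beside 39 of 23404 and 8 of 23089 rows in all. In that setting 3 of 33 member rows in hippocampus and 3 of 30 in cortex had an unadjusted p under 0.05, beside 12.0% and 5.41% of all rows.

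**Figure D3:**
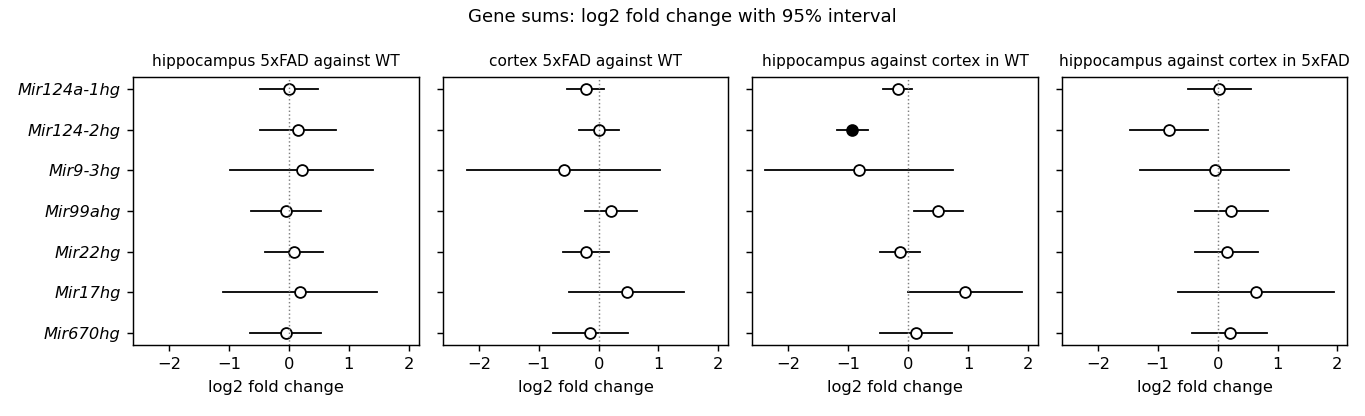
Log2 fold change of the 7 tested gene sums with the 95% interval from edgeR in 4 comparisons, each of 3 against 3 libraries; a filled point has an adjusted p under 0.05. Only Mir124-2hg in the WT region comparison is filled, and all intervals of the 5 × FAD against WT comparisons include 0.

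The comparison of hippocampus with cortex within a genotype asked which host genes differ between the regions. Both regions were taken from each mouse, and these fits hold no term for the mouse. Mir124-2hg was lower in WT hippocampus than in WT cortex and was the only member called. Its gene sum was 206, 208 and 205 CPM in hippocampal WT 1, 2 and 3 and 422, 382 and 363 CPM in cortical WT 1, 2 and 3. Every hippocampal library was below every cortical one. The log2 fold change was -0.93 (SE 0.11, 95% interval -1.20 to -0.67, edgeR adjusted p = 0.00879), which is 0.523-fold. Of all features, 3.49% of 11429 gene sums were called in this comparison, against 1 of 7 members. DESeq2 also called 1 of 7, beside 6.66% of all gene sums. At an unadjusted p under 0.05 there were 2 of 7 members, Mir124-2hg and Mir99ahg, beside 17.3% of all gene sums, and 3 of 7 did not overlap between the regions, beside 24.9%. The call was lost when any 1 of the 3 hippocampal WT libraries was left out, with adjusted p-values of 0.0503 to 0.0567, and in a single fit of all 12 libraries (0.0581), while the log2 fold change stayed between -0.99 and -0.87 in all 14 alternatives.

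The 3 rows of Mir124-2hg with the most counts were each lower in WT hippocampus than in WT cortex. Agreement with the sum is built in, since ENSMUST00000185804 alone holds 68.6% of the gene's counts. ENSMUST00000185804, which begins inside the hairpin, had 597, 651 and 598 counts in WT hippocampus and 1195, 1240 and 874 in WT cortex, which is 0.499-fold (95% interval of the log2 fold change -1.30 to -0.71, SE 0.12, edgeR adjusted p = 0.0291). It was the only member row called, of 31 tested, beside 0.986% of 22007 rows, and its call was lost when any 1 of the 6 libraries was left out, with adjusted p-values of 0.0631 to 0.145, and in the fit of all 12 libraries (0.176). DESeq2 called 3 of 31 member rows here, beside 3.38% of all rows. ENSMUST00000186746, upstream of the hairpin, had 272, 236 and 225 counts in WT hippocampus and 460, 388 and 273 in WT cortex, a log2 fold change of -0.77 (SE 0.18, adjusted p = 0.136). ENSMUST00000188983, which spans the hairpin in an intron, had 93, 74 and 55 counts against 92, 104 and 106, with a log2 fold change of -0.64 (SE 0.25, adjusted p = 0.352). The groups did not overlap in CPM for these 3 rows, as for 10 of the 31 member rows and 20.6% of all rows.

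In 5 × FAD mice the Mir124-2hg difference had the same direction and did not pass the adjusted test. The gene sum was 323, 188 and 162 CPM in hippocampal 5 × FAD 1, 2 and 3 and 377, 355 and 443 CPM in cortical 5 × FAD 1, 2 and 3. The regions did not overlap here either, and the spread within hippocampus was wide. The log2 fold change was -0.81 (SE 0.28, unadjusted p = 0.0219, edgeR adjusted p = 0.304). None of the 7 gene sums was called in 5 × FAD mice, beside 0.193% of 11399, and DESeq2 called 0 of 7. Mir124-2hg was also the 1 member of 7 with an unadjusted p under 0.05 and with groups that did not overlap, beside 12.6% and 19.2% of all gene sums. Of the rows, 0 of 29 were called by edgeR, beside 0.0182% of 22016, and 3 of 29 had an unadjusted p under 0.05 and 2 did not overlap, beside 9.38% and 17.0% of all rows. DESeq2 called 1 member row, beside 1.66% of all rows, namely ENSMUST00000186746, with 186, 123 and 155 counts in hippocampus and 386, 319 and 496 in cortex, at a log2 fold change of -1.35 (SE 0.26, edgeR adjusted p = 0.187). Without both libraries labelled 5 × FAD 3 the log2 fold change of the Mir124-2hg gene sum was -0.52 (95% interval -1.29 to 0.25), and that of ENSMUST00000186746 was -1.21 (edgeR adjusted p = 0.413). The test of the difference between the genotype effects in the 2 regions gave 0.11 (95% interval -0.58 to 0.80, edgeR adjusted p = 0.969) for this gene, and 0.43 (-0.24 to 1.10) without both of those libraries, so a difference between the genotypes was not detectable.

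Mir124a-1hg, whose transcript carries the same miRNA, differed less between the regions. Its gene sum was 863, 871 and 853 CPM in hippocampal WT 1, 2 and 3 and 1010, 899 and 974 CPM in cortical WT 1, 2 and 3. The log2 fold change was -0.18 (95% interval -0.42 to 0.06, edgeR adjusted p = 0.440), although the groups did not overlap. In 5 × FAD mice it was 892, 623 and 1026 CPM in hippocampus and 812, 755 and 918 CPM in cortex, with a log2 fold change of 0.03 (-0.49 to 0.55). The interval for WT did not reach the interval of Mir124-2hg.

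The ratio of the counts of Mir124-2hg to those of Mir124a-1hg within each library was then compared, a measure that was chosen after the levels were seen and does not depend on scaling between libraries. It was 0.238, 0.239 and 0.241 in WT hippocampus and 0.362, 0.301 and 0.158 in 5 × FAD hippocampus. In cortex it was 0.418, 0.425 and 0.373 in WT and 0.465, 0.470 and 0.482 in 5 × FAD. All 6 hippocampal ratios were below all 6 cortical ratios, with means of 0.256 ± 0.0689 (SD, n = 6) and 0.439 ± 0.0411 (SD, n = 6). No test is given for this ratio, since the levels that led to it are the same data. Without the libraries labelled 5 × FAD 3 the ratios were 0.238 to 0.362 in hippocampus and 0.373 to 0.470 in cortex. Leaving out libraries cannot make separate ranges overlap, so this is no further check.

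**Figure D4:**
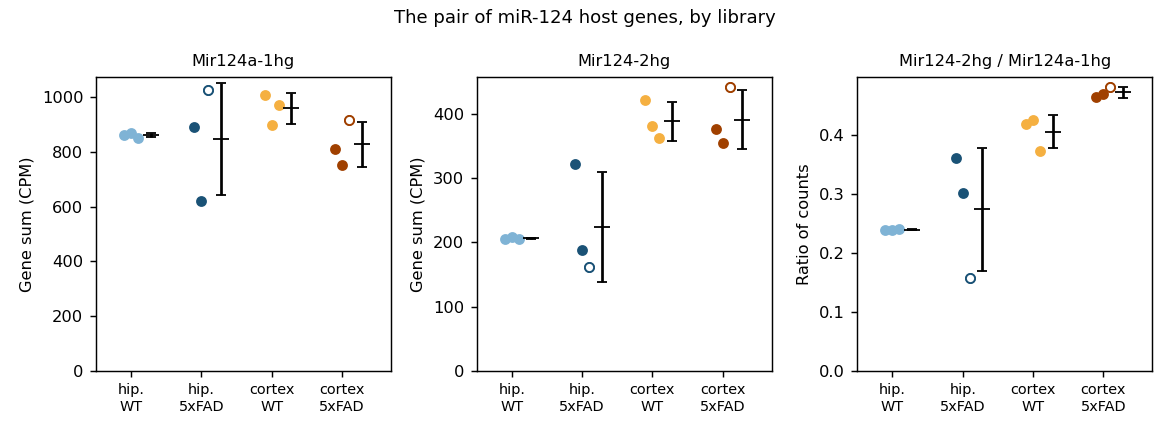
Gene sums of Mir124a-1hg and Mir124-2hg in CPM and the ratio of their counts, by library; points are libraries in the order 1, 2, 3 (open points are the libraries labelled 5 × FAD 3) and bars are the mean ± SD (n = 3). The ratio is between 0.158 and 0.362 in the 6 hippocampal libraries and between 0.373 and 0.482 in the 6 cortical libraries.

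Mir99ahg, the host of miR-99a, let-7c and miR-125b, leaned the other way. Its gene sum was 140.2, 152 and 160.0 CPM in hippocampal WT 1, 2 and 3 and 89.1, 96.3 and 129 CPM in cortical WT 1, 2 and 3. The hippocampal libraries were above the cortical ones, and the log2 fold change of 0.51 (SE 0.17, unadjusted p = 0.0217) did not pass the adjusted test (edgeR adjusted p = 0.193). Its row with the most counts was ENSMUST00000182748 (5 exons, from 77329328 to 77558428), with 223, 219 and 211 counts in WT hippocampus and 113, 106 and 92 in WT cortex. Its log2 fold change was 0.89 (SE 0.14, edgeR adjusted p = 0.0550), and the adjusted p ranged from 0.00243 to 0.271 over 14 alternatives, of which 3 called it. ENSMUST00000068704 had 83, 94 and 50 counts against 29, 33 and 38, at 0.97 (SE 0.31, edgeR adjusted p = 0.266). In 5 × FAD mice Mir99ahg overlapped between the regions, with 103, 196 and 128 CPM in hippocampus and 136, 112 and 115 CPM in cortex, and its log2 fold change was 0.23 (95% interval -0.38 to 0.84).

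**Figure D5:**
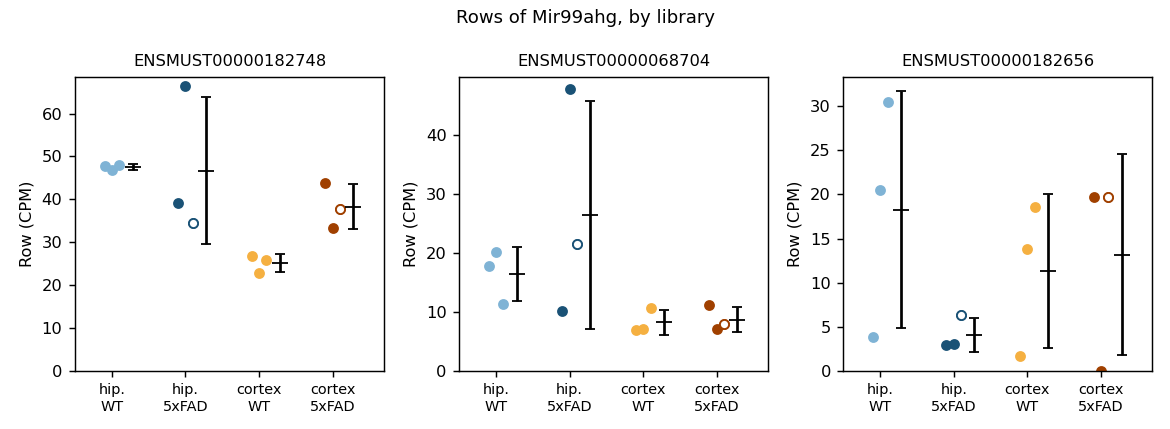
Level in CPM of 3 rows of Mir99ahg in the 12 libraries; points are libraries in the order 1, 2, 3 (open points are the libraries labelled 5 × FAD 3) and bars are the mean ± SD (n = 3). ENSMUST00000182748 is higher in WT hippocampus (47.5 ± 0.666) than in WT cortex (25.2 ± 2.08), and ENSMUST00000182656 varies widely within each WT group.

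The host of the related miR-100 cluster overlapped between the regions. 3110039I08Rik summed to 259, 314 and 281 CPM in WT hippocampus and 273, 316 and 197 CPM in WT cortex, with a log2 fold change of 0.10 (95% interval -0.34 to 0.54). Its row with the most counts, ENSMUST00000181296, took 66.5% of them and begins after all 3 hairpins of the cluster. The ratio of Mir99ahg to 3110039I08Rik within a library was 0.558 ± 0.0439 (SD, n = 6) in hippocampus and 0.468 ± 0.207 (SD, n = 6) in cortex, and the ranges overlapped. Between WT and 5 × FAD hippocampus the row ENSMUST00000181214 of 3110039I08Rik, which spans Mir125b-1 in an intron, had the smallest p of the gene, with 78, 77 and 80 counts for WT 1, 2 and 3 against 136, 133 and 164 for 5 × FAD 1, 2 and 3, a log2 fold change of 1.03 (SE 0.21, unadjusted p = 0.00174, edgeR adjusted p = 0.495). Without the library labelled 5 × FAD 3 this value was 0.92 (edgeR adjusted p = 0.273), and that of the gene sum was -0.17 in place of -0.22.

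Mir9-3hg, 1 of several hosts of miR-9, was the most uneven of the higher members. It had 300, 303 and 142 counts in WT hippocampus, 445, 131 and 167 in 5 × FAD hippocampus, 843, 231 and 116 in WT cortex, and 214, 161 and 430 in 5 × FAD cortex. The libraries of a group thus differed from each other by more than the groups did. Part of this spread was in ENSMUST00000181511, with 119, 127 and 12 counts in WT hippocampus, 176, 9 and 17 in 5 × FAD hippocampus, 463, 12 and 3 in WT cortex, and 15, 29 and 149 in 5 × FAD cortex. That row took from 2.59% to 54.9% of the gene's counts. ENSMUST00000182317, by contrast, had 24 to 54 counts in all 12 libraries. Between the regions in WT the log2 fold change of the gene sum was -0.82 (95% interval -2.39 to 0.74). Without cortical WT 1 it was 0.35.

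A single smaller row of Mir9-3hg leaned towards cortex. ENSMUST00000182937, which spans Mir9-3 in an intron, had 15, 29 and 20 counts in WT hippocampus and 52, 53 and 25 in WT cortex, at a log2 fold change of -1.16 (SE 0.34, unadjusted p = 0.0136, edgeR adjusted p = 0.237). In all, 6 of the 31 member rows had an unadjusted p under 0.05 between the regions in WT, beside 12.8% of all rows. Of these, 3 belonged to Mir124-2hg, 2 to Mir99ahg and 1 to Mir9-3hg.

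No difference in the gene sums of Mir22hg and Mir670hg was called in any comparison. Mir22hg had 76.6, 85.4 and 85.3 CPM in WT hippocampus, 65.2, 87.6 and 104 in 5 × FAD hippocampus, 101, 78.0 and 89.2 in WT cortex, and 74.1, 69.6 and 87.1 in 5 × FAD cortex. Its log2 fold change between the regions was -0.13 (95% interval -0.47 to 0.20) in WT and 0.15 (-0.38 to 0.67) in 5 × FAD. The protein-coding gene Tlcd2 overlaps Mir22hg on the same strand, so part of these counts could come from it. Its row ENSMUST00000134345 gave the smallest p among the members in the test of the genotype effect between the regions, with 11, 37 and 20 counts in WT hippocampus, 34, 31 and 40 in 5 × FAD hippocampus, 39, 38 and 32 in WT cortex, and 34, 25 and 20 in 5 × FAD cortex (log2 difference 1.26, SE 0.54, unadjusted p = 0.0403, edgeR adjusted p = 0.697). In Mir22hg 91.6% of the counts were in ENSMUST00000149940, which covers the whole span of the gene. Mir670hg ranged from 42 to 87 counts over the 12 libraries, and its log2 fold change between the regions was 0.13 (-0.46 to 0.73) in WT and 0.20 (-0.43 to 0.83) in 5 × FAD. Its row with the most counts, ENSMUST00000209947, took 34.7% of them and lies outside its hairpins.

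In that test of the genotype effect between the regions, 0 of 7 gene sums and 0 of 32 member rows were called, beside 0.0% of 12104 gene sums and 0.00812% of 24632 rows, and DESeq2 called 0 members at either level. At an unadjusted p under 0.05 the members gave 0 gene sums and 1 row, beside 7.01% of all gene sums and 6.89% of all rows. All 12 libraries entered this fit. Without both libraries labelled 5 × FAD 3 the members again gave 0 calls, with a smallest unadjusted p of 0.182 for the gene sums and of 0.0610 for the rows, and ENSMUST00000134345 gave 0.98 (unadjusted p = 0.139).

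Mir17hg and Mir142hg were near the limit of detection. Mir17hg, a single row, had 25, 15 and 33 counts in WT hippocampus, 35, 30 and 9 in 5 × FAD hippocampus, 14, 12 and 8 in WT cortex, and 23, 15 and 10 in 5 × FAD cortex. In CPM the groups of WT overlapped, with 3.19 in the lowest hippocampal library and 3.28 in the highest cortical one. The log2 fold change between the regions in WT was 0.94 (95% interval -0.01 to 1.90, edgeR adjusted p = 0.292). In 5 × FAD mice it was 0.64 (-0.66 to 1.95).

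Mir142hg had 0, 4 and 2 counts in WT hippocampus, 4, 0 and 3 in 5 × FAD hippocampus, 4, 0 and 0 in WT cortex, and 10, 4 and 1 in 5 × FAD cortex. It did not pass the filter in any comparison. Most of these values are at or near 3 counts, the smallest number taken here as detected, which corresponds to 0.598 to 0.853 CPM, so no fold is given. The libraries with the highest microglia marker levels, 5 × FAD 1 and 2, held 4 and 0 counts in hippocampus and 10 and 4 in cortex. The only other genes of the table named in this way, Mir155hg and Mir133a-1hg, had 3 and 1 counts in all.

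Genes of miRNA biogenesis were examined beside the hosts. Of 37 listed symbols, 26 had rows in the table, mostly non-coding transcripts of those genes, and 24 or 25 passed the filter. None was called in any of the 5 comparisons by edgeR or by DESeq2. At an unadjusted p under 0.05 there were 1 in hippocampus (Ago4, an Argonaute) and 0 in cortex for 5 × FAD against WT, and 1 in each of the other 3 comparisons, beside 8.69% and 6.67% of all gene sums between the genotypes and 7.01% to 17.3% in the other comparisons. Without the libraries labelled 5 × FAD 3 none was called, and 4 of 25 in hippocampus and 0 of 25 in cortex had an unadjusted p under 0.05, beside 14.0% and 6.36% of all gene sums. Lin28b, which blocks the maturation of let-7, had 47, 34 and 23 counts in WT hippocampus and 71, 75 and 48 in WT cortex, at a log2 fold change of -1.06 (SE 0.28, edgeR adjusted p = 0.104). The median log2 fold change of the list was 0.04 in both genotype comparisons, beside medians of 0.03 in hippocampus and 0.00 in cortex over all gene sums.

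Other cell populations could differ between the dissected regions, and in bulk tissue fewer cells of a type and less RNA per cell cannot be told apart. The astrocyte markers, 5 of 7 with rows, summed to 1423 to 1542 CPM in WT hippocampus and 958 to 1577 CPM in WT cortex, with Gfap at 0 in the former. In 5 × FAD hippocampus they summed to 528 to 1195 CPM, below all WT hippocampal libraries, and in 5 × FAD cortex to 964 to 1529 CPM. Of the 4 astrocyte markers tested between the genotypes in hippocampus 0 were called, and their median log2 fold change was 0.02. The lower sum thus does not stand for the list as a whole. The 7 neuronal markers with rows summed to 1550 to 3452 CPM in WT hippocampus and 1622 to 2832 CPM in WT cortex, and both lists overlapped between the regions in WT. In 5 × FAD mice the neuronal markers summed to 1795 to 7180 CPM in hippocampus, with a median library of 2007 CPM, and 1372 to 3168 CPM in cortex. Between the genotypes 0 of the 7 were called in either region, with median log2 fold changes of 0.41 and -0.17. The oligodendrocyte markers overlapped as well, at 348 to 438 CPM and 299 to 468 CPM, and in 5 × FAD mice they summed to 505 to 591 CPM in hippocampus and 538 to 611 CPM in cortex. Of the 5 oligodendrocyte markers tested between the genotypes 0 were called in either region. Their median log2 fold change was -0.08 in hippocampus and 0.54 in cortex, so the hippocampal sum does not stand for the list as a whole. The choroid plexus markers summed to 16.8 to 33.4 CPM in WT hippocampus and 3.65 to 3.99 CPM in WT cortex, with Folr1 at 0 in all 4 groups. Their part in the Mir124-2hg difference was not tested.

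The patterns of the hosts over the 12 libraries were most like those of the following genes, by Pearson's r of log2(CPM + 1) among 12979 gene sums with a mean of at least 1 CPM. These values are descriptions over libraries that share region, genotype and depth. They are the highest of many candidates over 12 libraries and so are high by selection. Mir124-2hg was most like Gucy1a1 (r = 0.951), Cntn4 (0.950) and the assembled locus MSTRG.12869 (0.944), and Mir124a-1hg most like MSTRG.14715 (0.900), Osbpl7 (0.892) and Srrm2 (0.886). Neither miR-124 host was among the 3 nearest of the other. Mir99ahg was nearest to Cdk8 (0.903), MSTRG.7731 (0.899) and Focad (0.893), and Mir9-3hg to Ttc38 (0.913), H3f3aos (0.868) and Gm26515 (0.853). For Mir22hg they were Stx12 (0.879), Pdlim7 (0.879) and MSTRG.15737 (0.872), for Mir17hg Psmd6 (0.894), Adsl (0.885) and Rpl3 (0.882), and for Mir670hg Crip3 (0.903), Cspg4 (0.851) and MSTRG.8820 (0.840).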

How the data were processed

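Ribosomal RNA was depleted and stranded paired-end libraries were sequenced by the authors; Trimmomatic 0.36 and edgeR are named in the submitters' processing notes, and the aligner, counter and genome build of the count table are not given in the sources used here (the study's methods name an aligner for circular RNA only). The study's methods also name RNase R for the removal of linear RNA. Whether the libraries of this count table had that step is not stated there, and levels of linear transcripts would depend on it. The authors deposited whole-number counts per transcript, not normalized, and it is not known whether estimates were rounded. All 12 sample columns entered the fits. Names and positions came from GENCODE M21 (GRCm38), in which 225 Ensembl identifiers were not found.

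Counts were tested per row and summed per gene with edgeR 4.0.16 in R 4.3.3 (filterByExpr, TMM, glmQLFit, glmQLFTest, Benjamini-Hochberg over the whole table, threshold 0.05), with the 6 libraries of a comparison or, for the difference of genotype effects, all 12. CPM used TMM-scaled totals. DESeq2 1.42.0 was an alternative. The functions were tested on simulated counts. Intervals are 95%; floors and totals cover counting error only. P-values measure the spread between these libraries.

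Library numbers come from the library codes. Both regions were taken from each mouse, but whether the same number in both regions marks the same mouse is not stated. The region tests and the fits of all 12 libraries hold no term for the mouse. They thus treat libraries of the same mice as independent. Chi-square per degree of freedom between libraries of a group was 20.81 to 33.04, so none was a duplicate. The members and lists were chosen with earlier results of these data known. Named were all member gene sums, each gene's row with most counts, rows called or among the 3 smallest unadjusted p-values in a comparison, called list genes, and the 3 most alike genes. Outside this rule, ENSMUST00000182937, ENSMUST00000182317, ENSMUST00000181214, Ago4 and Lin28b were picked with their values known.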

Additional observations from a re-analysis of the deposited data

How the results depend on the processing

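Depth limits the rows of few counts and Mir17hg and Mir142hg most, 3 libraries a group limit all comparisons, and sex and genotype cannot be told apart. Between the regions in WT, the 1 gene sum called became 0 with all 12 libraries in 1 fit and 0 with the replicate block, and ranged from 0 to 1 without a library. For Mir124-2hg the adjusted p was then 0.0581, 0.0824 with the block, and 0.0561, 0.0503 and 0.0567 without hippocampal WT 1, 2 and 3, and the gene stayed lower in hippocampus in all 14 alternatives. The 1 row called in WT became 3 with DESeq2, 2 with at least 10 counts in every library, 2 with robust estimation, 0 without a filter, 0 with all 12 libraries, 0 with the replicate block, and 0 to 0 without a library. In 5 × FAD mice the 0 rows called became 1 with DESeq2 and 1 with all 12 libraries. The cause of these changes was not tested. Genotype calls of members stayed at 0 in every alternative run. Over all gene sums, the 399 calls in WT ranged from 5 with the block to 761 with DESeq2, the 22 calls in 5 × FAD from 0 to 336, and the genotype calls (6 in hippocampus and 2 in cortex) from 0 to 83 and from 0 to 53. Over all rows, the 217 calls in WT ranged from 0 to 743, the 4 in 5 × FAD from 0 to 366, and the 4 in hippocampus and 12 in cortex between the genotypes from 0 to 127 and from 0 to 102. For the difference of genotype effects they ranged from 0 to 19 gene sums and from 0 to 105 rows, with DESeq2 highest.

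Same-numbered libraries of the regions did not all deviate together (r from 0.006 to 0.132 over rows and from -0.036 to 0.261 over gene sums). The highest values were those of 5 × FAD 3, beside at most -0.0479 and -0.128 with the other numbers. Thy1, Xist and microglia markers also set that number apart in both regions. In WT every same-number value over gene sums was below the highest with another number. The numbers were therefore not taken as pairs, and the replicate block changed no call other than those above. Estimates near 0 changed sign as follows, none of them called. For Mir124a-1hg between the genotypes in hippocampus the log2 value of 0.00 became -0.012 with DESeq2, -0.012 with its size factors, -0.025 with all 12 libraries, -0.0024 with at least 10 counts, -0.015 without a filter and -0.028 with the replicate block. For Mir124-2hg in cortex it was -0.0049 without a filter. Without the 5 × FAD libraries with Xist above 1000 counts, which leaves only the library labelled 5 × FAD 3, assumed to vary like the WT libraries, hippocampal values were -0.36 for Mir9-3hg, -0.33 for Mir124-2hg, -1.23 for Mir17hg and 0.065 for Mir670hg, cortical values 0.055 for Mir9-3hg, -0.26 for Mir17hg and 0.20 for Mir670hg, and differences of genotype effects -0.42 for Mir9-3hg, -0.51 for Mir124-2hg and -0.13 for Mir670hg. Without both libraries labelled 5 × FAD 3, an alternative chosen after seeing the data, the regions differed in 5 × FAD by 0.64 for Mir9-3hg and -0.048 for Mir124a-1hg.

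Leaving out 1 library at a time gave, between the genotypes in hippocampus, -0.56 to 0.53 for Mir9-3hg, -0.16 to 0.18 for Mir124a-1hg, -0.21 to 0.33 for Mir124-2hg, -0.36 to 0.13 for Mir99ahg, -0.085 to 0.24 for Mir22hg, -0.19 to 0.57 for Mir17hg and -0.18 to 0.11 for Mir670hg. In cortex it gave -1.06 to 0.59 for Mir9-3hg and -0.095 to 0.076 for Mir124-2hg. Between the regions in WT it gave -1.22 to 0.35 for Mir9-3hg and -0.049 to 0.25 for Mir670hg, and in 5 × FAD -0.81 to 0.42 for Mir9-3hg, -0.13 to 0.21 for Mir124a-1hg, -0.070 to 0.42 for Mir99ahg and -0.016 to 0.31 for Mir22hg. For the difference of genotype effects it gave -0.38 to 1.25 for Mir9-3hg, -0.24 to 0.33 for Mir124-2hg, -0.67 to 0.11 for Mir17hg and -0.046 to 0.28 for Mir670hg. Mir17hg could not be fitted with at least 10 counts in every library.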
